A study of Homo sapiens with 10 samples.

Results

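The promoters of 1110 protein-coding genes carried a peak of the retinoblastoma protein, Rb, in all 4 libraries of cells treated with INX-315 and in none of the 4 libraries of cells treated with DMSO. They are 5.56% of the 19970 protein-coding genes of chromosomes 1 to 22 and X in GENCODE release 44, and are called gained promoters here. Rb was profiled by CUT&RUN, in which an antibody tethers a nuclease to its target on native chromatin and the fragments cut out around it are sequenced. Both cell lines, OVCAR-3 and Kuramochi, are established human lines derived from high-grade serous ovarian carcinoma. They were exposed for 2 days to 300 nM of INX-315, an inhibitor of the kinase CDK2, or to its solvent DMSO. Each line contributed 2 Rb libraries per treatment, described in the methods of the study as individual biological replicates, together with 1 IgG2a library that served as its control and came from the DMSO arm. A gene was counted as bound when at least 1 bp of a peak fell between 2000 bp upstream and 500 bp downstream of any of its annotated transcript starts. The genes were thus selected on peak presence under INX-315 and absence under DMSO, as listed by the authors' peak caller, and the treatment contrast is described below without a test.

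Rb is a tumour suppressor that holds back the transcription factors of the E2F family. Cyclin-dependent kinases, CDK2 among them, phosphorylate Rb and thereby weaken its hold on E2F, and inhibition of these kinases leaves more Rb unphosphorylated. The classical Rb and E2F sites lie at the promoters of genes for DNA replication and the cell cycle, many of which also contain CCAAT boxes, the element read by the NF-Y complex. The related pocket proteins p107 and p130 use a further element, the cell cycle homology region or CHR, through the DREAM complex.

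The sequences upstream of 5 gained promoters are given as examples, chosen because they held an E2F, CHR or CCAAT match. They do not stand for the group, in which CCAAT boxes were in 29.7% of promoters and E2F sites in 3.69%. They are taken from the GRCh38 reference, written 5′ to 3′ on the strand of the gene, and run from 170 to 21 bp before the canonical transcript start. Capitals mark CCAAT boxes on either strand (CCAAT or ATTGG) and, in TMEM222, an E2F site. The first 4 belong to the 12 highest-ranked regions, and TMEM222, at 69 in the order of ranks, is shown for its E2F site. MAP3K20, at 22, also held an E2F site, at -44 bp, and is not shown.
ZNF549, chr19:57527186-57527335, plus strand: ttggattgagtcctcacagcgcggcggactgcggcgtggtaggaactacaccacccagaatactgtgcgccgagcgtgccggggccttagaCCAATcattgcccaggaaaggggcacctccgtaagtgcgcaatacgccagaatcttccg
BSDC1, chr1:32394462-32394611, minus strand: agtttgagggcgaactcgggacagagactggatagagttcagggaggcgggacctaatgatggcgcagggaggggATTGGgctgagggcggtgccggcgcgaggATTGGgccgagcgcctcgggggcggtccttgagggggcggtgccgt
PTTG1, chr5:160421685-160421834, plus strand: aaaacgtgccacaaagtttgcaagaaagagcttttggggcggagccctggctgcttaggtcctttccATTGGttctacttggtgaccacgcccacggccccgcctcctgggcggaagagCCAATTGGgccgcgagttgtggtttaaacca
MTFMT, chr15:65029660-65029809, minus strand: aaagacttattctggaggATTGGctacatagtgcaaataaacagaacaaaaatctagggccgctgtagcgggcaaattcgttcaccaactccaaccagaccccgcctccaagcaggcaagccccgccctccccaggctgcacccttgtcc
TMEM222, chr1:27321993-27322142, plus strand: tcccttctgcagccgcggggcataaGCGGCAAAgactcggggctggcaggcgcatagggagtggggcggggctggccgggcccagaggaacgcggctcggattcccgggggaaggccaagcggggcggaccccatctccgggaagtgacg
The CCAAT box of ZNF549 began at -79 bp from the start. BSDC1 held boxes at -95 and -66 bp, and PTTG1 held 3 matches, at -103, -51 and -48 bp. Those at -51 and -48 bp overlap, as CCAATTGG read on both strands. The box of MTFMT began at -152 bp, and the E2F site of TMEM222, GCGGCAAA, began at -145 bp.

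The gained promoters were one end of a scale, with almost no counterpart in the reverse direction. A promoter peak was present in all 4 INX-315 libraries at 9667 genes, of which 1110 had no DMSO peak, 1442 had a peak in 1 DMSO library, 1582 in 2, 1771 in 3 and 3762 in all 4. No gene had a peak in all 4 DMSO libraries and none under INX-315, and 1 gene had peaks in at least 2 DMSO libraries and none under INX-315. Counting each line alone, OVCAR-3 gained 1994 genes and Kuramochi 1681, with no DMSO peak in either line. The shared 1110 were 55.7% of the former and 66.0% of the latter, which left 884 genes gained in OVCAR-3 without Kuramochi and 571 in Kuramochi without OVCAR-3. Of the 884, 384 had a peak in Kuramochi INX-315 replicate 1 and 106 in replicate 2. Of the 571, 12 had a peak in OVCAR-3 INX-315 replicate 1 and 399 in replicate 2.

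**Figure D1:**
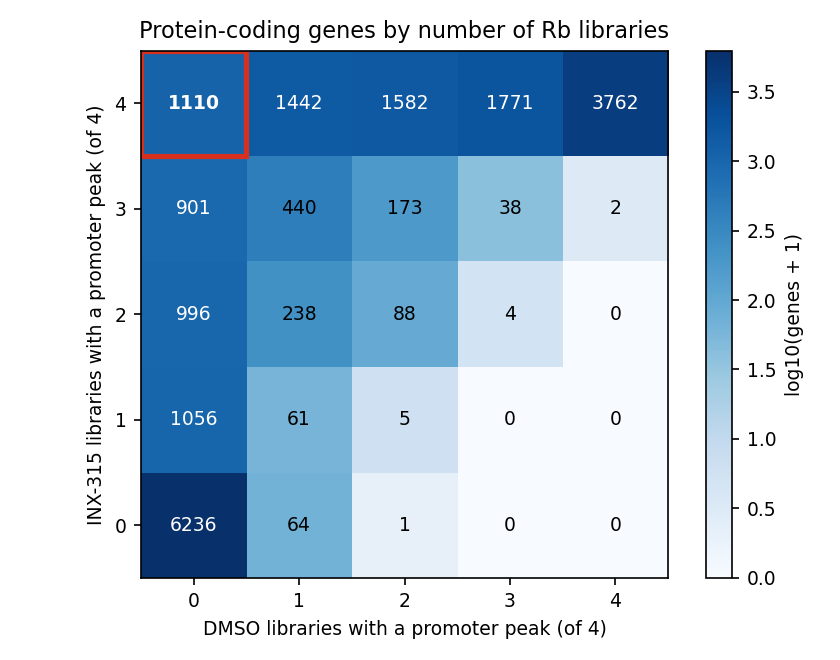
Number of protein-coding genes by how many of the 4 INX-315 libraries (vertical axis) and of the 4 DMSO libraries (horizontal axis) held a promoter peak, with colour on a log10 scale. The 1110 gained promoters are in the red frame, and the opposite corner, 4 DMSO libraries and no INX-315 library, is at 0.

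Membership depended on how many peaks each library listed. OVCAR-3 had 6162 and 7984 peaks under DMSO but 13031 and 17281 under INX-315, and Kuramochi 5221 and 8794 but 15244 and 13395. When every library of a line was shortened to its strongest peaks by p-value, 6162 in OVCAR-3 and 5221 in Kuramochi, only 44 genes met the rule, and 10 of them were among the 1110. Under the same shortening 13 genes met the reverse rule, and 2941 genes kept a peak in all 8 libraries. The 10 genes were ELOVL6, ZNF549, PYY, SHBG, BSDC1, PTTG1, SLU7, DNAAF5, PRKAR1B and DNAJC11. Of the 1110, 754 had no peak left in any INX-315 library at that length. By rank, most gained promoters thus lay beyond the number of peaks that the DMSO libraries listed. Their height under DMSO is not known, because a peak list gives no value where no peak was called.

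Both INX-315 libraries of OVCAR-3 were shallower than its DMSO libraries, and in Kuramochi the depths of the 2 groups overlapped. Depth, the mean number of fragments over a base of the genome as recovered from the peak statistics, was 0.495 and 0.501 for OVCAR-3 under DMSO against 0.307 and 0.421 under INX-315. For Kuramochi it was 0.445 and 0.380 against 0.405 and 0.216. A gained promoter at its INX-315 height would have had a median of 17.9 and 18.2 fragments in the DMSO libraries of OVCAR-3 against 14.3 and 12.2 for Kuramochi. At that height at least 1109 of the 1110 would have passed the lowest p-value listed in each DMSO library. The genes had been selected for a listed peak in every INX-315 library, so this follows largely from the rule and the depths. It gives no measure of their height under DMSO. With the height divided by 2, between 748 (67.4%) and 960 (86.5%) would still have passed, so at the remainder a peak of that height could have been present under DMSO without being listed. No gained promoter carried an IgG2a peak, but only 3 of all 19970 protein-coding genes did. The IgG2a libraries listed 25 peaks in OVCAR-3 and 12 in Kuramochi on chromosomes 1 to 22 and X.

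Peaks at gained promoters were low and narrow beside those at promoters bound in all 8 Rb libraries. Fold enrichment is the number of fragments under a summit plus 1, divided by its local background plus 1. It is therefore smaller than the plain ratio of fragments to background. Its median was 6.61 and 11.2 in the INX-315 libraries of OVCAR-3 against 7.31 and 6.17 for Kuramochi. At the 3762 promoters bound in all 8 libraries the medians in the same order were 18.9, 32.9, 24.2 and 19.1. The median widths there were 1224, 1367.5, 1222.5 and 1117.5 bp. Promoters gained in 1 line only were lower still in that line, with medians of 5.73 and 8.22 for OVCAR-3 and 6.14 and 5.52 for Kuramochi. The median summit of a gained promoter rested on 9, 18, 12 and 8 fragments. Scaled to the mean background of its library it stood at 29.4 and 42.8 times that background in OVCAR-3, and at 29.6 and 37.1 times in Kuramochi. Among genes with a peak in all 4 INX-315 libraries, that median height went up with every further DMSO library that also held a peak. In OVCAR-3 replicate 1 it was 29.4 at genes with none, 35.9 with 1, 42.4 with 2, 55.5 with 3 and 91.4 with 4 such libraries. The other INX-315 libraries had the same order. The groups were defined by whether a peak was listed under DMSO, so this order may follow in part from the rule.

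**Figure D2:**
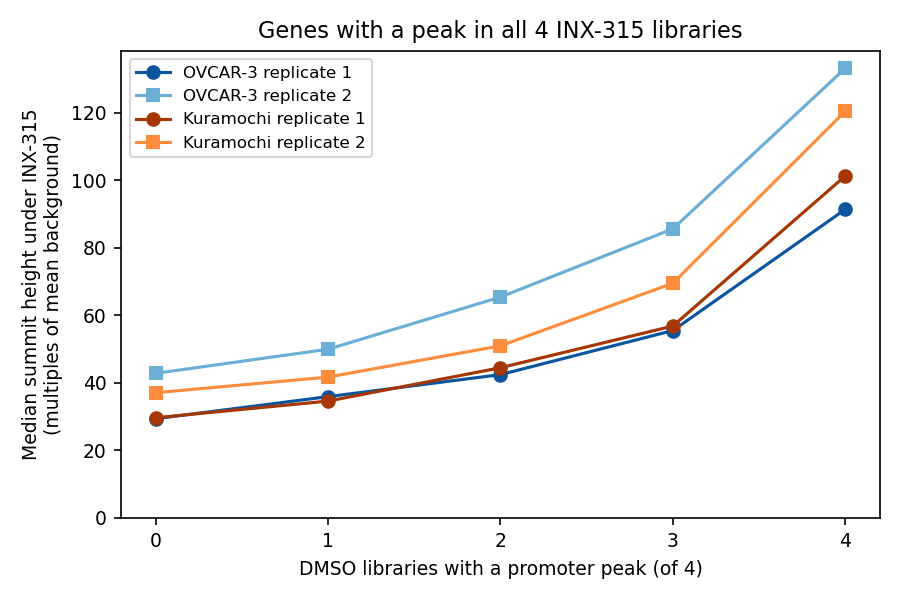
Median summit height under INX-315, in multiples of the genome-wide mean background, for genes with a peak in all 4 INX-315 libraries, by number of DMSO libraries with a peak. Lines are the 4 INX-315 libraries, and every line is lowest at the gained promoters (0 DMSO libraries) and highest at promoters bound in all 8.

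Within the gained promoters the 4 libraries agreed more within a line than between lines. Over the 1110 genes the log2 fold enrichment of the OVCAR-3 replicates had a Pearson r of 0.60 and that of the Kuramochi replicates 0.50, whereas the 4 pairs of libraries from different lines had r between 0.18 and 0.26. These are descriptions across genes that share a library and its depth.

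Most Rb summits lay close to an annotated transcript start of these genes. The rule required a peak near such a start, and these genes had a median of 7 starts. Distance was taken to the nearest one touched, so closeness to a start is partly built in. The median summit lay at +20 and +13 bp from the nearest start touched in OVCAR-3 and at +12 and +3 bp in Kuramochi, and between 78.6% and 82.9% of summits lay within 250 bp of it. Between 55.9% and 61.2% of summits fell in annotated exons, between 25.8% and 28.1% in introns and between 13.1% and 15.9% outside genes. For 981 genes (88.4%) the mean summit was within 1000 bp of the canonical start, and with canonical starts alone 989 of the 1110 still met the rule. The median width was 547.5 and 809 bp in OVCAR-3 and 575 and 453 bp in Kuramochi. The line means of these widths, 678.25 and 514 bp, differed by 164.25 bp, or by 33.5 bp without replicate 2 of OVCAR-3. The exact two-sided permutation test over the 6 arrangements of the line labels gave p = 0.667 for width. For the summit position, which differed by 9 bp between the lines, the exact permutation p was 0.333, the smallest this design can give. In 474 genes (42.7%) all 4 summits lay within 200 bp of each other, and the median spread was 232 bp.

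Several genes shared a peak. The 1110 genes were served by 991 distinct sets of peaks, of which 879 served 1 gained gene, 105 served 2 and 7 served 3. Regions that served 3 included one shared by ZNF547, TRAPPC2B and ENSG00000268133 on chromosome 19, one shared by ZMYM1, ZMYM6 and ENSG00000271741 on chromosome 1, and one shared by PARG, TIMM23B and TIMM23B-AGAP6 on chromosome 10. A coding gene transcribed in the opposite direction started within 1 kb upstream of 162 gained genes (14.6%), against 12.7% of all protein-coding genes and 27.01% of genes bound in all 8 libraries. Such pairs cannot be assigned to 1 of the partners.

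The highest gained peaks belonged to genes of unlike function. Genes were ranked by the mean, over the 4 INX-315 libraries, of the percentile of their fold enrichment within the library. ELOVL6, the elongase that lengthens C16 fatty acids, was first, with fold enrichment values of 26.8 and 52.1 in OVCAR-3 against 19.2 and 17.3 in Kuramochi. Its peak (chr4:110195784-110198781) was intronic and wide, between 1857 and 2998 bp, with a mean summit 1721 bp downstream of the canonical start. ZNF549, a zinc finger gene of chromosome 19, had 17.1 and 28.7 in OVCAR-3 against 31.5 and 24.6 in Kuramochi, at an exonic summit (chr19:57527226-57527986) 87 bp downstream of its start. On this scale the lines overlapped at ZNF549, whereas at ELOVL6 both OVCAR-3 values exceeded both Kuramochi values.

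PYY, the gut hormone peptide YY, had 18.8 and 19.1 in OVCAR-3 against 23.9 and 16.6 in Kuramochi. SHBG, the sex hormone-binding globulin, had 9.18 and 17.0 in OVCAR-3 against 21.2 and 17.7 in Kuramochi. Both were counted through a remote transcript start, with mean summits at -52996 bp (PYY) and -15033 bp (SHBG) from the canonical start. These peaks (chr17:44005751-44007847 and chr17:7614245-7615454) are thus not at the usual promoters of these genes. From the nearest start touched, the mean summits were at -2467 bp (PYY) and 1038 bp (SHBG), against 1472 bp at ELOVL6. At these genes the summit lay outside the promoter window, which only another part of the peak reached. DAB1, an adaptor of reelin signalling, was also counted through a remote start. It shared its peak with OMA1, a mitochondrial inner membrane protease.

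PTTG1, which encodes securin, the inhibitor of separase, shared an exonic peak (chr5:160421707-160422222) with an annotated start of the splicing factor gene SLU7. Its fold enrichment was 12.03 and 22.6 in OVCAR-3 against 14.4 and 11.6 in Kuramochi, and its mean summit lay 109 bp downstream of the start. The 3 CCAAT matches shown above lay between -266 and -114 bp from the summits of the 4 libraries. BSDC1 had 9.91 and 21.7 in OVCAR-3 against 16.7 and 14.3 in Kuramochi. MTFMT, which formylates the initiator methionyl-tRNA of mitochondria, had 13.6 and 23.9 in OVCAR-3 against 8.95 and 12.5 in Kuramochi. ZNF445, a zinc finger protein that maintains imprinting, had 9.79 and 24.5 against 12.8 and 14.8. The remaining regions among the first 12 were those of RECQL5, a DNA helicase, with SAP30BP (8.57, 25.8, 14.9 and 12.4 in the order OVCAR-3 replicates 1 and 2, Kuramochi replicates 1 and 2), of DAB1 with OMA1 (10.3, 12.5, 17.6 and 16.3), of the glycosyltransferase gene B3GNT4 (13.6, 20.8, 16.6 and 7.94) and of SMCO4 (12.9, 19.03, 20.2 and 7.505). The lowest value of each of these 12 regions was above the library's own median for gained promoters.

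**Figure D3:**
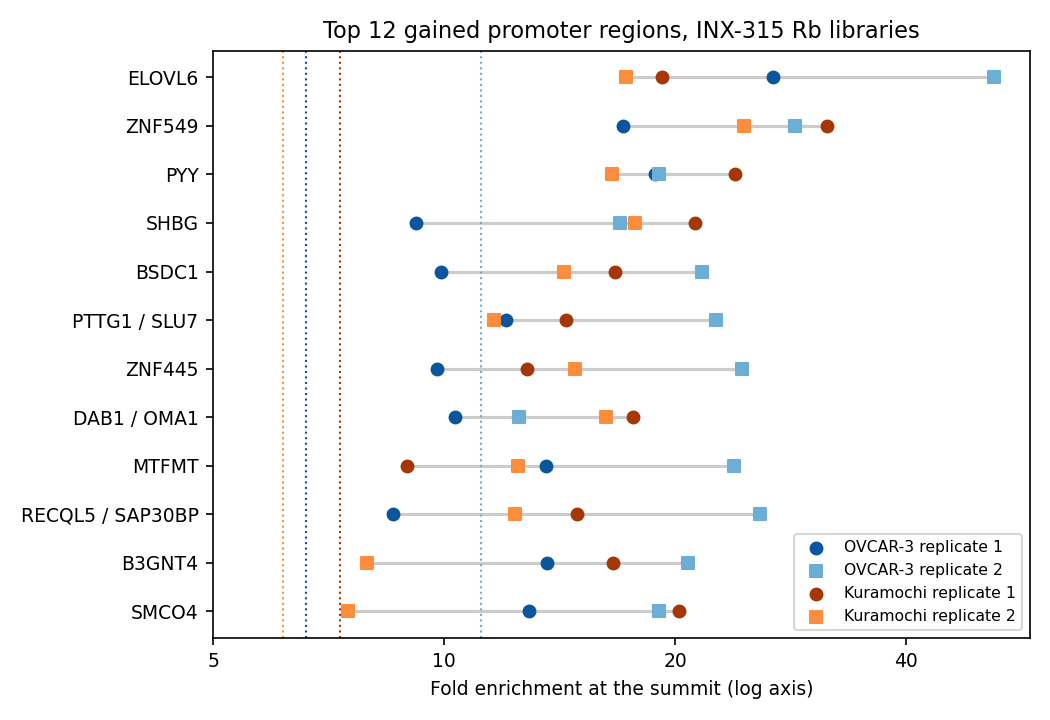
Fold enrichment (log axis) of the 12 gained regions with the highest mean percentile rank, 1 point per INX-315 library. Dotted lines are the medians of the 1110 gained promoters in the library of the same colour, and every point lies to the right of its own line.

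At the other end, membership hung on weak peaks. The lowest −log10 q over the 4 libraries had a median of 4.48 over the genes, 78 of them were below 2, and 814 had at least 3 in every library. MAP9, ZNF30 and ZNF414 were the weakest, each with a −log10 q of 1.31 in Kuramochi replicate 1. MAP9, a microtubule-associated protein gene, had fold enrichment values of 5.51 and 12.4 in OVCAR-3 against 3.32 and 8.67 in Kuramochi. ZBTB2 and ENSG00000290184 were just outside, since they lacked a peak only in OVCAR-3 INX-315 replicate 1. ZBTB2 had 23.2 in OVCAR-3 replicate 2 and 19.5 and 13.5 in Kuramochi. Just outside on the other side were SH3GLB1, GNG8 and DCUN1D1, each with a peak in 1 DMSO library, Kuramochi replicate 2. In that library GNG8 had a fold enrichment of 22.7, the same as in Kuramochi INX-315 replicate 2, whereas SH3GLB1 had 4.91 against 32.5 and DCUN1D1 9.28 against 15.6. Leaving out Kuramochi DMSO replicate 2 raised the number of gained genes to 1807, the only omission of a library that moved it by more than 1.5 times.

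The functions of the gained genes were described with 35 gene lists, each set beside the 5.56% of all genes that were gained. A gene with a DMSO peak could not be gained, so shares are also given of the genes without one, which over all genes was 10.8% of 10299. Of 59 genes for DNA replication and nucleotide synthesis none was gained, since every one had a DMSO peak, and 47 had a peak in all 8 libraries. Among 30 spindle, kinesin and cytokinesis genes none was gained, with 3 that lacked a DMSO peak and 11 bound in all 8. Gained genes of the cell cycle included AURKB, the kinase of the chromosomal passenger complex, with 6.12 and 10.2 in OVCAR-3 against 9.27 and 9.41 in Kuramochi, and HASPIN, the histone H3 kinase that directs that complex to centromeres, with 5.51 and 15.6 against 8.13 and 10.5. These were 2 of 21 mitotic kinase, phosphatase and B-type cyclin genes (9.52%), and 2 of the 5 without a DMSO peak.

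PTTG1 and ANAPC4 were the 2 gained of 31 genes of the anaphase-promoting complex, securin and cohesin (6.45%), of which 4 lacked a DMSO peak and 16 were bound in all 8. ANAPC4, a subunit of the complex, had 10.4 and 17.5 in OVCAR-3 against 3.58 and 4.98 in Kuramochi. Of 39 centromere and kinetochore genes 2 were gained (5.13%), out of 5 without a DMSO peak. CENPE, the kinesin of the kinetochore, had 9.18 and 14.8 against 9.97 and 5.204. CEP128, a centriole protein gene, was 1 of 34 CEP genes and of the 2 without a DMSO peak, with 9.11 and 15.6 against 8.94 and 6.61.

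For DNA repair, PALB2, the partner of BRCA2, was the 1 gained of 34 genes of homologous recombination and the Fanconi pathway, 24 of which were bound in all 8 libraries and 2 of which had no DMSO peak. Its values were even, 9.18 and 9.15 in OVCAR-3 against 8.84 and 8.04 in Kuramochi, at a peak shared with DCTN5. XPA and ERCC5, both of nucleotide excision repair, were 2 of 35 other repair genes, XPA with 5.31 and 14.2 against 12.1 and 11.9. CDKN1A, which encodes the CDK inhibitor p21, was 1 of 31 p53 target and CDK inhibitor genes, with 10.4 and 12.9 in OVCAR-3 against 6.01 and 6.64 in Kuramochi at chr6:36678340-36681054. E2F5, an E2F member that partners p130, was also gained, with 4.26 and 3.81 in OVCAR-3 against 10.1 and 5.204 in Kuramochi. It was at 1016 in the order of ranks, near the low end. RBL2, the gene of p130, was gained too, at 527, as was the kinase gene CDK6, at 498. No gene list was made for the E2F family or its partners, so no share is given for them.

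Aminoacyl-tRNA synthetase genes, whose products charge tRNAs, had the highest gained share of the 35 lists. Of 35 such genes 8 were gained (22.9%), which is 61.5% of the 13 without a DMSO peak, and 9 were bound in all 8 libraries. They were MARS2, WARS1, KARS1, GARS1, EPRS1, YARS2, MARS1 and NARS2, cytosolic and mitochondrial enzymes alike. Their peaks were low. MARS2 had 5.67 and 10.2 in OVCAR-3 against 8.54 and 5.76 in Kuramochi, WARS1 6.85 and 8.96 against 6.41 and 4.11, and NARS2, the weakest, 5.36 and 3.52 against 3.99 and 4.93. At a q-value of at most 0.001 in every library the list held 5 gained genes, and with that limit in the INX-315 libraries alone 3.

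Of 86 genes for the subunits of oxidative phosphorylation, 12 were gained (14.0%, or 31.6% of the 38 without a DMSO peak) and 10 were bound in all 8 libraries. They covered complex I (NDUFA12, NDUFB4, NDUFS6, NDUFA9 and NDUFB5), complex II (SDHB), complex III (UQCRFS1), complex IV (COX5B) and the ATP synthase (ATP5MC2, ATP5PD, ATP5ME and ATP5MF). COX5B had 10.6 and 14.9 in OVCAR-3 against 7.55 and 11.2 in Kuramochi, and ATP5MC2 had 5.14 and 13.9 against 12.6 and 11.0. Of 78 mitochondrial ribosomal protein genes 8 were gained (10.3%, or 29.6% of the 27 without a DMSO peak), MRPL30 with 9.04 and 8.94 against 9.25 and 8.22 and MRPL28 with 7.44 and 9.02 against 9.30 and 9.46. Cytosolic ribosomal protein genes gave 7 of 86 (8.14%, or 16.7% of the 42 without a DMSO peak). RPL27A had 9.70 and 23.01 against 11.3 and 9.46, at a peak shared with TRIM66, and RPL21 had 6.89 and 16.2 against 14.3 and 13.0.

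Fatty acid and sterol synthesis gave 5 of 38 (13.2%), or 55.6% of the 9 without a DMSO peak. Beside ELOVL6 these included ELOVL2, an elongase of polyunsaturated fatty acids, with 6.73 and 15.5 in OVCAR-3 against 16.4 and 12.2 in Kuramochi, ACSS2, which makes acetyl-CoA from acetate, with 4.61 and 18.3 against 8.35 and 10.2, and SREBF1, the transcription factor of lipogenesis, with 7.34 and 15.4 against 6.64 and 4.93. The peak of SREBF1 lay at 13290 bp from its canonical start, at an internal start. With canonical starts alone, 2 genes of the list were gained, and with the summit required in the promoter 3.

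Genes of transcription and chromatin were also present. Of 66 basal and Mediator genes 6 were gained (9.09%, or 37.5% of the 16 without a DMSO peak), namely MED16, GTF2H5, MED1, MED27, TAF1 and POLR2F. MED1, the Mediator subunit that binds nuclear receptors, had 9.87 and 8.16 in OVCAR-3 against 9.25 and 4.93 in Kuramochi. Of 51 genes for histone and DNA methylation, polycomb and demethylation, 5 were gained (9.80%, or 45.5% of the 11 without a DMSO peak), KDM3B, KDM1A, TET2, KDM2B and NSD1. KDM1A, a histone H3 demethylase, had 7.18 and 14.7 against 9.10 and 8.17. TET2, which oxidises methylcytosine, had 9.11 and 18.4 in OVCAR-3 against 5.69 and 4.11 in Kuramochi, and NSD1 had the lowest mean rank of all 1110 genes, with 3.59 and 3.31 against 3.98 and 3.66. Of all lists, the ZNF genes contributed the most gained genes, 23 of 246 on chromosome 19 (9.35%) and 26 of 262 elsewhere (9.92%). After ZNF549, ZNF787 led those on chromosome 19 with 6.66 and 18.0 against 10.6 and 9.57, and after ZNF445, ZNF148 led the others with 11.2 and 19.2 against 12.6 and 9.46.

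Developmental and tissue-restricted lists were near or below the share of all genes. Developmental transcription factor families gave 7 of 183 (3.83%, or 7.07% of the 99 without a DMSO peak), among them LHX6, BARX2, PAX9 and MSX1, and HOX genes 2 of 39, HOXC13 and HOXB7. HOXC13 had 10.4 and 19.8 in OVCAR-3 against 16.6 and 7.88 in Kuramochi. Wnt, FGF, BMP and Notch genes gave 2 of 78, protocadherins 4 of 65, solute carriers 20 of 337 (5.93%) and replication-dependent histones 2 of 69. Oestrogen receptor and response genes gave 2 of 32, CELSR2 with 5.99 and 10.1 against 9.12 and 4.91 and IGFBP4, an inhibitor of insulin-like growth factors, with 4.45 and 8.76 against 9.97 and 4.11. Peptide hormone genes gave 3 of 47 (PYY, NMB and NPY). None was gained among 40 interferon and antigen presentation genes, 47 spliceosome genes, 55 keratins or 415 olfactory receptors. Autophagy (2 of 31), intraflagellar transport and Bardet-Biedl proteins (2 of 23), the proteasome (2 of 39), nucleoporins (1 of 23) and ubiquitin-conjugating and F-box genes (4 of 97) made up the rest. These shares are small counts with no test, and many genes of each list could not be gained because they were bound under DMSO.

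**Figure D4:**
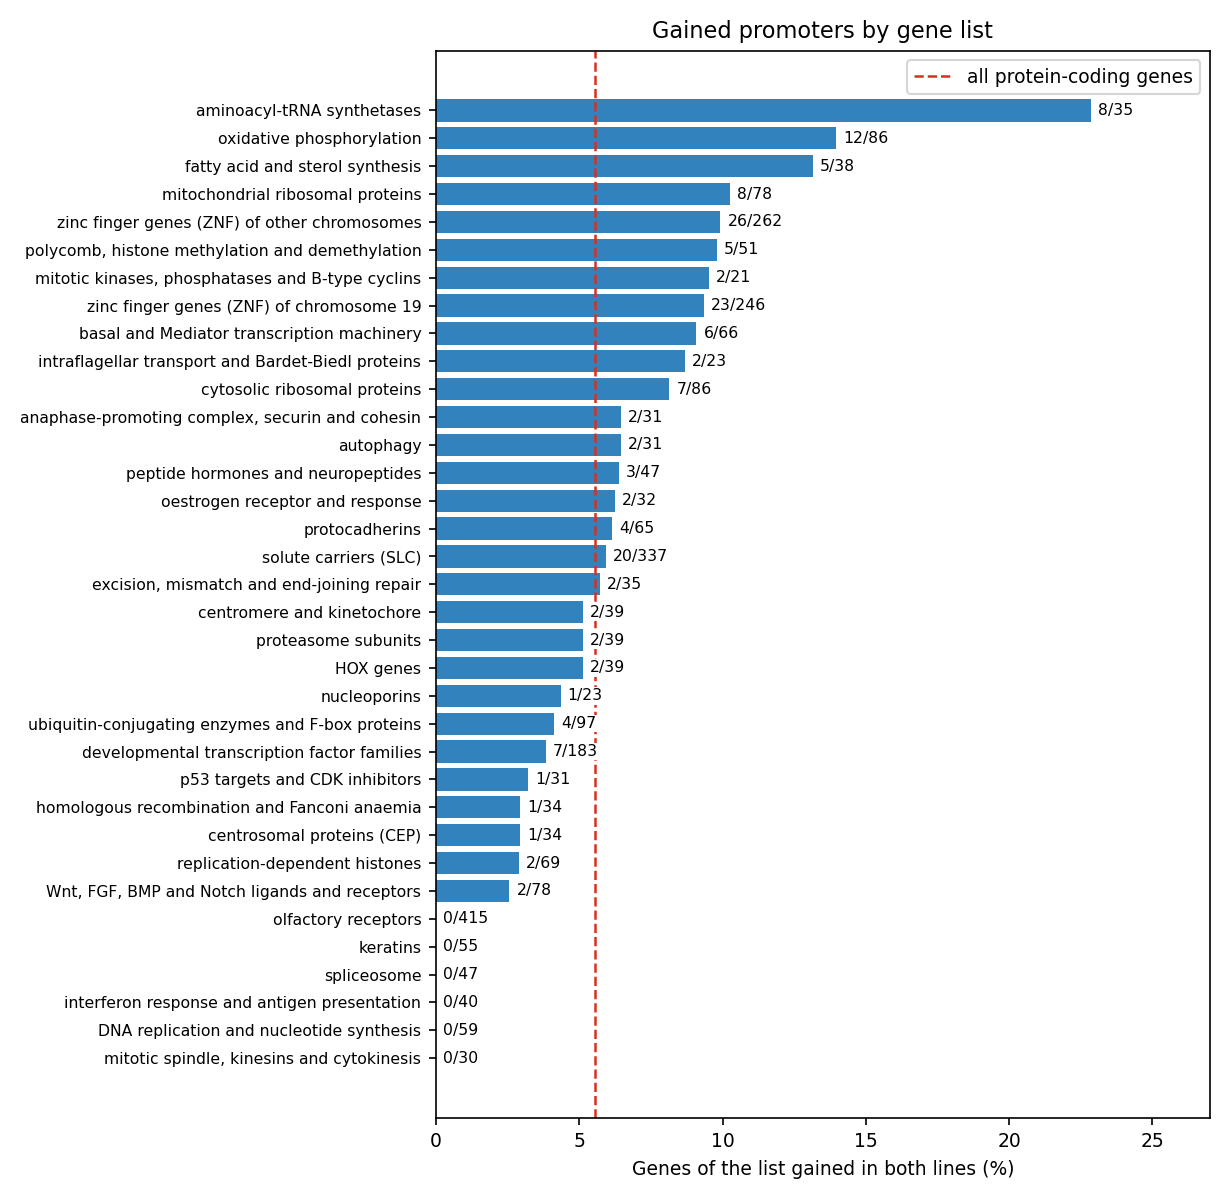
Percentage of each of 35 gene lists gained in both lines, with gained and annotated genes as numbers at the bars. The dashed line is the 5.56% of all protein-coding genes, and 6 lists hold no gained gene.

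Whether the gained promoters differed in strength between the lines was tested, since the rule treated both lines alike. The rule also required a peak in every INX-315 library, so promoters without one in a line were left out. Promoter regions with a peak in all 4 INX-315 libraries, 8572 in all, were fitted with limma on log2 fold enrichment after each library had been centred on its median. Of these, 9.53% were higher in OVCAR-3 and 13.1% higher in Kuramochi at an adjusted p of at most 0.05 (Benjamini-Hochberg over all 8572). Among the 969 regions that held gained promoters, 42 were higher in OVCAR-3 (4.33%) and 43 in Kuramochi (4.44%), both lower than the shares over all regions, and the other 884 did not pass. Gained peaks were lower than those at promoters bound in all 8 libraries and rested on fewer fragments. The lower shares therefore cannot be read as closer agreement between the lines. The median difference of the 969, OVCAR-3 minus Kuramochi, was 0.00 and its SD 0.55 on the log2 scale. That median was largely set by the centring and was 0.32 without it, so it does not show equal strength in the lines. These calls rested on the centring, since without it 4 of 8572 regions and no gained region passed. They also rested on single libraries. Without OVCAR-3 replicate 1 the gained regions called numbered 34, without OVCAR-3 replicate 2 19, and without Kuramochi replicate 1 45.

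TESMIN, a member of the CXC domain family to which the MuvB subunit LIN54 also belongs, differed most. Its fold enrichment was 3.48 and 4.17 in OVCAR-3 against 15.9 and 11.0 in Kuramochi, a log2 difference of -2.12 (SE 0.35, limma adjusted p = 0.000192). ZBTB12 followed with 3.68 and 6.51 against 14.9 and 14.9 (log2 difference -1.92, SE 0.33, limma adjusted p = 0.000232). The groups did not overlap at either gene. GAS7 (-1.53) and TTLL12 (-1.49), log2 differences in each case, were also among the 5 largest in that direction. GAS7 lost its call without Kuramochi replicate 1 (limma adjusted p = 0.0655).

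In the other direction RASAL1, a Ras GTPase-activating protein gene, had 8.67 and 22.5 in OVCAR-3 against 4.27 and 3.29 in Kuramochi, a log2 difference of 1.58 (SE 0.35, limma adjusted p = 0.00241). TRIM68, a ubiquitin ligase gene, had 24.1 and 30.2 against 7.46 and 7.34 (log2 difference 1.55, SE 0.29, limma adjusted p = 0.000508). SLC1A1, a glutamate transporter gene, TUBA1A, an alpha-tubulin gene, and TMOD3, which caps actin filaments, had log2 differences of 1.55, 1.55 and 1.54. Without OVCAR-3 replicate 1 these 3 calls were lost (limma adjusted p of 0.0710, 0.0584 and 0.0508), and without OVCAR-3 replicate 2 that of RASAL1 was lost (limma adjusted p = 0.0595). Among the best-ranked genes, ELOVL6 had a log2 difference of 0.72 and ZNF549 of -0.64, both at an adjusted p below the threshold.

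**Figure D5:**
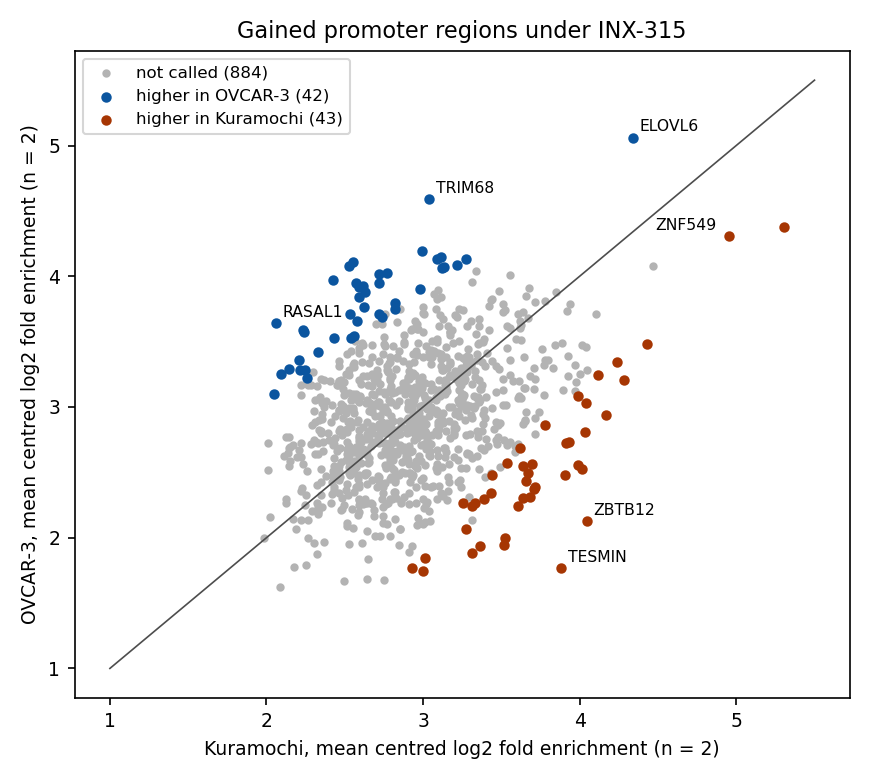
Mean centred log2 fold enrichment of 969 gained regions in OVCAR-3 (vertical axis) and Kuramochi (horizontal axis) under INX-315, n = 2 libraries each, with the line of equality. Blue points (42) were higher in OVCAR-3 and brown points (43) higher in Kuramochi at a limma adjusted p of at most 0.05.

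The promoters of gained genes were CpG-rich, and E2F sites were less frequent in them than in promoters bound in all 8 libraries but more frequent than in those with no Rb peak. In the 250 bp before to 50 bp after the canonical start, the median G and C content was 67%, and 994 of 1110 (89.5%) had a ratio of observed to expected CpG above 0.6. The share was 92.8% of promoters bound in all 8 libraries, 67.4% of all protein-coding promoters and 22.5% of those with no Rb peak. Among promoters gained in 1 line only it was 83.0% for OVCAR-3 and 87.2% for Kuramochi. An E2F site (TTTCCCGC, TTTGGCGC, TTTCGCGC or TTTGCCGC on either strand) was found in 41 gained promoters, or 3.69% (95% Wilson interval 2.73% to 4.97%, counting error only). It was found in 1.78% of promoters with no Rb peak, 4.37% of all promoters and 9.30% of those bound in all 8 libraries. Promoters gained in 1 line only lay on either side of the 3.69%, with 2.49% for OVCAR-3 and 5.25% for Kuramochi. No E2F site was present in this window at the 12 top regions. The summits of ELOVL6, PYY and SHBG lay far outside it, so for them the window does not describe the sequence under the summit.

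CCAAT boxes were in 29.7% of gained promoters against 36.5% of those with no Rb peak, 36.0% of all and 44.02% of those bound in all 8. The CHR element TTTGAA was in 7.66% of gained promoters, 18.8% of those with no Rb peak, 11.5% of all and 8.48% of those bound in all 8. Elements of other factors were in shares near those of the promoters bound in all 8 libraries. The ETS motif CCGGAAGT was in 9.46% of gained promoters, 8.61% of those bound in all 8, 6.15% of all promoters and 1.41% of those with no Rb peak, and the NRF1 motif GCGCATGC in 7.03%, 6.38%, 4.25% and 1.67% in that order. The GC box GGGCGG was in 75.4%, 80.8%, 61.3% and 28.6%. Motifs were sought on both strands, and the letters GGGCGG and the E2F and NRF1 motifs can overlap. A match is a run of letters and no evidence of a bound factor, and a window without one may hold variants that were not sought. Gained promoters with an E2F site had a median mean rank of 41.7, those without one of 38.9.

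Gained promoters were found on every chromosome tested. Their share of protein-coding genes was highest on chromosomes 13 (8.36%), 3 (7.77%) and 9 (7.72%) and lowest on chromosomes 8 (2.56%), 5 (3.40%) and 20 (3.48%). A summit of any DMSO library was within 10 kb of the canonical start at 124 genes (11.2%), against 7.12% of genes with no peak in any Rb library, and the median distance to the nearest one was 58.8 and 93.4 kb. Genes with a DMSO peak at the promoter had been removed from both groups by their definition.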

How the data were processed

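Rb and IgG2a CUT&RUN peak lists of OVCAR-3 and Kuramochi cells were used (8 Rb and 2 IgG2a libraries). According to the methods of the study and the labels, the authors aligned paired reads to hg38 (Bowtie2 2.3.4.1) and called peaks in each library with MACS2 2.2.7.1 against the IgG2a library of the line at a q-value of 0.05. The deposited files give a fold enrichment per peak (a ratio), with its −log10 p-value and with a −log10 q-value, as the authors' peak caller wrote them. Their differential test needs reads and was not repeated.

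Membership was determined with Python 3.11.15 and pandas 2.3.3 on GENCODE release 44 (GRCh38, the build of the files; no peak on the 23 chromosomes used ran past the end of the reference sequence). Whole fragments and the local background were solved from each peak's fold enrichment and p-value within a relative tolerance of 0.00015, which succeeded for at least 99.5% of Rb peaks, and the most frequent background was taken as depth. Lines were compared under INX-315 with limma 3.58.1 in R 4.3.3 (eBayes with trend) on regions merged over the 4 INX-315 libraries. Of the 1110 genes, 1080 had such a region, and at 912 of the 969 regions the values were those of a gained gene's own highest promoter peak. Single values per library were compared by exact permutation. The solving of fragments and background and the limma fit were tested on simulated data, and the permutation was not. Motifs were matched as exact letters on both strands.

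Groups and replicate numbers came from the labels. Genes named are the 12 highest-ranked regions, up to 4 per gene list, the 5 largest line differences each way, the 3 genes at each edge of the rule and the regions serving most genes. Some genes that this rule names are not reported here. Other list members, E2F5, RBL2, CDK6, TMEM222, MAP3K20 and the genes kept at equal list length were named after their values were seen. The members and the gene lists were chosen with earlier results of these data known. Replicates are few, and p-values measure the spread between these libraries. Both INX-315 libraries of a line were called against the same IgG2a library, so variation of that control does not enter the p-values.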

Additional observations from a re-analysis of the deposited data

How the results depend on the processing

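The number of gained genes stayed within 1.5 times of 1110 under a stricter q-value, the summit rule, a narrower promoter and canonical starts, but was 44 at equal list length within a line. Leaving out single libraries gave between 1122 and 1807. The line comparison called 1942 regions in all and 85 gained ones, but 4 and 0 without centring, which moved the median of all regions to 0.27 on the log2 scale. With summit height as the measure, the gained regions called numbered 146. Leaving out single INX-315 libraries gave between 813 and 1444 regions in all and between 19 and 68 gained ones. The fits that leave 1 library in a line assume that it varies like the others. With the replicate number as a block, the calls were 2102 in all and 96 gained. Same-numbered libraries deviated with a correlation of -0.036, so the numbers were not treated as pairs.

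The width difference ranged from 33.5 to 295 bp and the summit difference from 4.5 to 13.5 bp when single libraries were left out, an alternative added after seeing the data. The E2F share was 3.53% with 1 gene per region and 2.97% in 200 bp around the summit. Without centring, all 10 of the named line differences no longer passed, and some also did not without a single library or with summit height. The direction of the difference was not checked in these alternatives. Of 406 alternatives for the gene lists, 93 moved the count by more than 1.5 times. With median summits of 8 to 18 fragments, depth limits how well single gained promoters can be ranked.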
